A study of Mus musculus with 7 samples.

Results

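The connexins described here are 6 genes of 26019 in the deposited expression table: Gja4, Gja1, Gjb2, Gjc1, Gja5 and Gjb5. They were chosen by name, as every row whose gene name equals one of these symbols, and each symbol had 1 row. The table comes from Smart-Seq2 RNA sequencing, a full-length method for very small inputs, of oocytes taken from secondary follicles of C57BL/6J mice. The 3 KO libraries carry loss of Mfn2, the gene of a mitochondrial outer membrane protein that tethers and fuses mitochondria, and the 4 WT libraries come from wild-type mice. Each library was made from 5 pooled oocytes that had been freed of granulosa cells with collagenase and then Accutase. The labels disagree on some points. The titles and design text name Mfn2-/-, whereas the genotype field and the treatment text name Mfn1-/-. The treatment and design texts give mice of 8 weeks, whereas the age field gives P1. The design text counts 3 mice per group, although WT has 4 libraries, and which mice went into each library is not stated. The p-values below therefore measure the spread between these libraries, which may be partly technical, and the labels used here name no Cre line or promoter behind the deletion.

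Connexins are membrane proteins that assemble into hemichannels, and the hemichannels of touching cells dock to form gap junctions that pass ions, cyclic nucleotides and small metabolites. In the mouse follicle, the Gja4 product (Cx37) is the main connexin of the oocyte at its contacts with granulosa cells, and the Gja1 product (Cx43) joins granulosa cells to one another. Through the oocyte junctions granulosa cells supply metabolites and the cyclic GMP that holds the oocyte in meiotic arrest, and female mice without Gja4 are infertile.

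The libraries held 6676076 to 8343915 reads assigned to genes, so 1 read was worth close to 1 normalised count. Mfn2 itself had 7.27, 4.55 and 7.66 normalised counts in KO 1 to KO 3, against 35.3, 35.2, 14.9 and 29.2 in WT 1 to WT 4. It was lower in KO by 1.94 on the log2 scale (log2 fold change -1.94, SE 0.40, limma adjusted p = 0.00571), which is the direction that the titles give. Mfn1 was at 335, 347 and 308 in KO and 287, 270.5, 340 and 258 in WT (log2 fold change 0.20, limma adjusted p = 0.499). The zona pellucida and other genes listed as oocyte markers summed to 222900 to 345700 normalised counts in KO and 193000 to 256200 in WT, and 0 of the 13 tested passed limma's threshold (5 had an unadjusted p under 0.05, all higher in KO, while edgeR called 2 and DESeq2 called 3). Their defining members, Gdf9 and Zp3, were abundant in every library.

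Fold changes below are KO over WT on the log2(normalised count + 1) scale, which understates the change of low genes, and a call means a Benjamini-Hochberg adjusted p under 0.05 in limma over the 19227 genes that reached a value of 1 in at least 3 libraries. Gja4, Gja1, Gjb2, Gjc1 and Gja5 passed this minimum and Gjb5 did not. Of the 5 tested connexins, Gjc1 was called higher in the KO libraries and none was called lower. Of all tested genes, 3.09% were called higher, 3.63% lower and 6.71% either way. At an unadjusted p under 0.05, 3 of the 5 were higher and 1 was lower, beside 21.8% of all tested genes in either direction. The edgeR test on recovered reads, which tested 3 of them, and DESeq2 each called 1, again Gjc1. The median log2 fold change of the 5 was 0.95, beside -0.01 over all tested genes. A single call among 5 genes is too few to be read against the share of all genes called.

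Gja4 encodes the main connexin of the oocyte at its contacts with granulosa cells, and Gja1 the connexin that joins granulosa cells to one another. Their promoters are printed because Gja4 was the most abundant connexin and Gja1 was near the limit of detection. The sequences are those of RefSeq on GRCm38.p6, from 250 bases before the annotated start to 50 after it, written 5′ to 3′ on the gene's strand. Capitals mark each E-box (CANNTG, both strands searched), the general motif of basic helix-loop-helix factors, a family that includes the oocyte factor Figla.
Gja4: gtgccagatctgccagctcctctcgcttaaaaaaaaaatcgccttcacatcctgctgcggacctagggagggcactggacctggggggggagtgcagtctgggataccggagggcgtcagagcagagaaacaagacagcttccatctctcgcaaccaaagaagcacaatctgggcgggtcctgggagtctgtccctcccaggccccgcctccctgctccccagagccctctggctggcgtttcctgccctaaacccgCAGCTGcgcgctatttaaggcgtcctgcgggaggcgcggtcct
Gja1: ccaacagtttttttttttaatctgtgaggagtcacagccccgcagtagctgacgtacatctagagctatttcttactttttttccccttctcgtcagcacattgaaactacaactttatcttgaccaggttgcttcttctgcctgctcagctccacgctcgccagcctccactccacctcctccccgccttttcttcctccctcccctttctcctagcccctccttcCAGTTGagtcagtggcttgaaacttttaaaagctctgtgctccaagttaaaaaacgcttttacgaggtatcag
The Gja4 stretch lies at chr4:127313990-127314289 on the minus strand and the Gja1 stretch at chr10:56377050-56377349 on the plus strand. The Gja4 promoter was richer in G and C, at 62.0% against 47.7% for Gja1, and the median of all 32851 promoters in the table was 52.7%. It held 1 E-box, beginning 7 bases after the start, and 1 GC box (GGGCGG, the letters bound by Sp1), beginning 79 bases before it. The Gja1 promoter held 1 E-box beginning 23 bases before the start, which overlapped 1 AP-1 match (TGANTCA, bound by Fos and Jun proteins) beginning 19 bases before it, and it held no GC box. Of all promoters, 72.3% held an E-box, 35.7% a GC box and 7.8% the AP-1 letters. Of the 5 members with an entry (Gja4, Gja1, Gjb2, Gja5 and Gjb5), Gjb5 held none of these motifs, and none held TAATTG, the letters of a NOBOX element, which 8.0% of all promoters held. A match is a description of the letters only. Gjc1 is named without a promoter.

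Gja4 (ENSMUSG00000050234.7, chr4:127311421-127314039 on the minus strand in GENCODE M21, GRCm38) was by far the most abundant connexin. It had 5671, 5797 and 3118 normalised counts in KO 1 to KO 3, against 5588, 6117, 5850 and 5510 in WT 1 to WT 4. The first and second KO libraries lay inside the WT range and KO 3 stood below every other library. The means were 4862 ± 1510 in KO and 5766 ± 275 in WT (SD, n = 3 and n = 4), and the difference did not pass the test (log2 fold change -0.30, 95% confidence interval -0.69 to 0.09, SE 0.18, limma adjusted p = 0.364). Without KO 3 the log2 fold change was -0.01 (limma adjusted p = 0.983).

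The low Gja4 value of KO 3 rested on 2850 reads, with an exact 95% Poisson interval of 2750 to 2960 that covers counting error only. KO 3 held 54.4% of the mean of KO 1 and KO 2 and 54.1% of the WT mean. It stood at 0.566 of the next lowest library, and 139 of 11693 genes with a mean of at least 20 (1.19%) were at or below that ratio in KO 3. The same drop was met by 1.83% of these genes in KO 2, 0.128% in KO 1 and 0.214% to 0.419% in the WT libraries. Counted by expression rank, Gja4 was the 139th, 153rd and 346th most abundant gene of KO 1 to KO 3, against the 158th, 133rd, 129th and 157th of WT 1 to WT 4. Among the 13 oocyte markers, KO 3 was the lowest library for Zp1, Zp3 and Nobox, and WT 3 was the lowest for 7.

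The 3 genes whose pattern over the 7 libraries was most like that of Gja4, by Pearson's r on log2 values among 9911 genes, were Sephs2 (0.996), Dus3l (0.995) and Coq8b (0.994), given as a description with no p. The points are libraries of 2 groups, and KO 3 was the lowest library for each of these genes, which the choice by likeness to Gja4 favours. Sephs2, which makes selenophosphate, had 218, 227 and 104 normalised counts in KO and 206, 226, 216 and 208 in WT. Dus3l, a tRNA dihydrouridine synthase by its family name, had 156, 170 and 74.4 in KO and 157, 169, 172 and 159 in WT. Coq8b, a kinase-like protein of coenzyme Q synthesis, had 31.8, 33.6 and 7.66 in KO and 34.3, 39.4, 32.7 and 33.6 in WT. In KO 3 these genes stood at 0.541 (Gja4), 0.486 (Sephs2), 0.452 (Dus3l) and 0.219 (Coq8b) of their WT means.

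**Figure D1:**
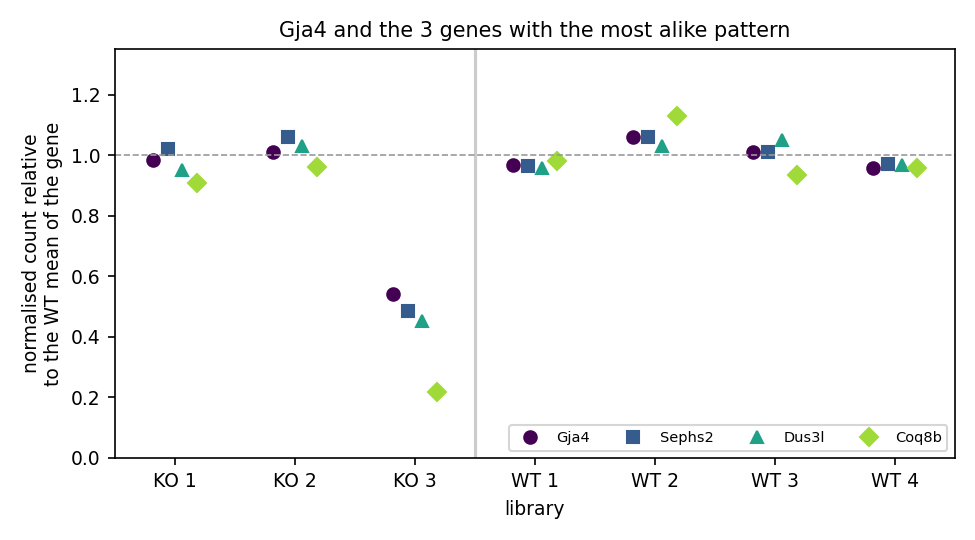
Value of Gja4 and of the 3 genes most like it in each library, divided by the gene's WT mean, with KO libraries left of WT libraries. All 4 genes dip in KO 3, to 0.541 for Gja4 and 0.219 for Coq8b, and lie near 1 in the other libraries. Choosing genes by likeness to Gja4 favours this shared dip.

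Gja1 (ENSMUSG00000050953.10, chr10:56377330-56402513, plus strand), the granulosa cell connexin, was near the limit of detection. It had 2.73, 11.8 and 14.2 normalised counts in KO 1 to KO 3, against 0, 1.07, 6.54 and 0 in WT 1 to WT 4. These are 3, 13 and 13 reads in KO and 0, 1, 7 and 0 reads in WT. KO 2 and KO 3 were the highest libraries, but KO 1 fell inside the WT range, so the groups overlapped. The means were 9.59 ± 6.06 in KO and 1.90 ± 3.13 in WT (SD, n = 3 and n = 4), and the difference did not pass the test over all genes (log2 fold change 2.18, 95% confidence interval 0.67 to 3.69, SE 0.72, limma adjusted p = 0.0775). The value passed when no minimum was set on low genes (limma adjusted p = 0.0234), without KO 1 (2.81, limma adjusted p = 0.0264) and without WT 3 (2.82, limma adjusted p = 0.0301), whereas DESeq2 gave an adjusted p of 0.201. In pooled oocytes, more adhering granulosa cells and more Gja1 RNA per oocyte cannot be told apart.

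Gjc1 (ENSMUSG00000034520.14, chr11:102799579-102819700, minus strand) encodes Cx45, known from the early heart and vascular smooth muscle. It had 27.3, 33.6 and 26.3 normalised counts in KO 1 to KO 3, against 1.91, 7.46, 9.35 and 9.75 in WT 1 to WT 4. Every KO library was above every WT library, as it was for 9.37% of all tested genes. The means were 29.05 ± 4.01 in KO and 7.11 ± 3.61 in WT (SD, n = 3 and n = 4), a ratio of 4.08. Gjc1 was called higher in the KO libraries (log2 fold change 2.05, 95% confidence interval 1.09 to 3.00, SE 0.46, limma adjusted p = 0.0103). On the recovered reads, edgeR gave a log2 fold change of 2.02 and an adjusted p of 0.00891, and DESeq2 an adjusted p of 0.00486. The call rested on 91 reads in KO and 28 in WT, and it held when any 1 of the 7 libraries was left out (limma adjusted p = 0.0140 to 0.0492). It was lost with the mean level of the granulosa markers in the fit (2.66, limma adjusted p = 0.332). That fit called 2 genes over the whole table, against 1291 in the main fit. With KO 1 as the single KO library, assumed to vary like the WT libraries, the log2 fold change was 1.97.

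Gjb2 (ENSMUSG00000046352.7, chr14:57098600-57104702, minus strand) encodes Cx26, known from the inner ear, skin and liver. It had 25.4, 53.6 and 19.7 normalised counts in KO 1 to KO 3, against 12.4, 14.9, 23.4 and 11.9 in WT 1 to WT 4. KO 2 was the highest library by a wide margin, and KO 3 lay within the WT range. The means were 32.9 ± 18.2 in KO and 15.65 ± 5.31 in WT (SD, n = 3 and n = 4), a difference that did not pass the test (log2 fold change 0.95, 95% confidence interval 0.15 to 1.74, SE 0.38, limma adjusted p = 0.145). Without KO 2 the log2 fold change was 0.54 (limma adjusted p = 0.531). By the same measure of likeness as for Gja4, the nearest genes were Tldc1 (r = 0.962), Zfp273 (0.949) and Zbtb14 (0.944), over 7 libraries and with no p. Of these, Zfp273 had 50.9 ± 18.6 normalised counts in KO and 21.7 ± 5.16 in WT (SD, n = 3 and n = 4). Gjc1 lay under the mean of 20 that this measure required.

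Gja5 (ENSMUSG00000057123.14, chr3:96904693-97077416, plus strand), which encodes Cx40 of the atria and arterial endothelium, had 0, 1.82 and 1.09 normalised counts in KO, against 3.81, 1.07, 3.74 and 13.0 in WT. These are 3 reads over the KO group and 21 over the WT group, 12 of them in WT 4. The groups overlapped and the difference did not pass the test (log2 fold change -1.49, SE 0.66, limma adjusted p = 0.190). Its locus overlaps Gpr89 and other annotated genes, and 14.0% of its 75-base stretches also occur in Gpr89 or Zfp697, so that with an unstranded kit its few reads are uncertain. Gjb5 (ENSMUSG00000042357.2, chr4:127354809-127358181, minus strand), the epidermal and placental Cx31.1, had 0.909, 0 and 0 normalised counts in KO, against 0.953, 2.13, 0 and 1.08 in WT. With 1 read over KO and 4 over WT it was too low to be tested, and a difference was not detectable at this depth. Gjb5 and Gja4 lie on the same strand of chromosome 4 with 40769 bases between them, and Gja4 was the most abundant member while Gjb5 was near 0.

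**Figure D2:**
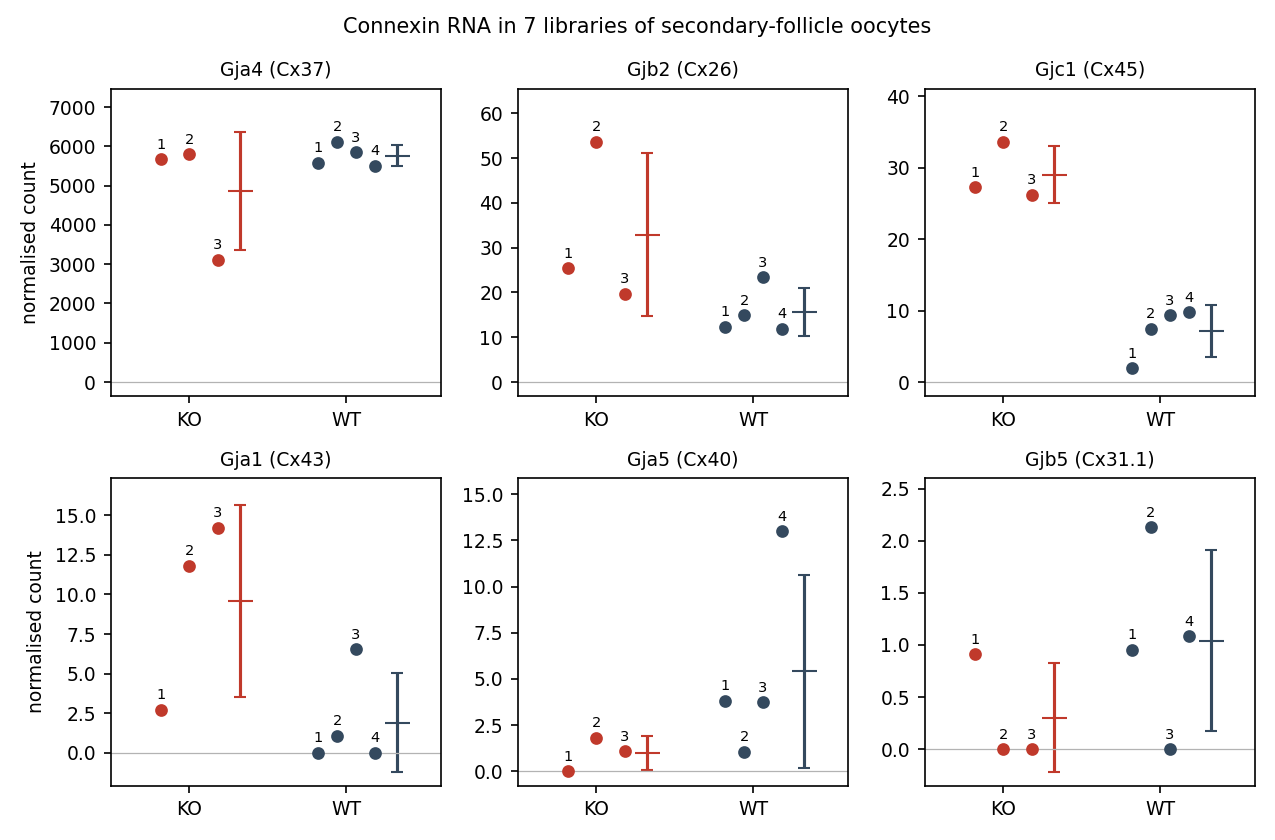
Normalised counts of the 6 connexins on linear axes that differ between panels, KO left of WT, with numbered points for libraries and bars for the mean and SD. KO 3 lies below the other libraries for Gja4 (3118), and the KO points of Gjc1 (26.3 to 33.6) lie above all WT points (1.91 to 9.75).

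Per kilobase of merged exons, which allows levels to be compared between genes, Gja4 averaged 3190 normalised counts over the 7 libraries (1850 to 3630). Gjb2 followed at 9.58 (4.95 to 22.3) and Gjc1 at 3.30 (0.381 to 6.72). Gja5 at 0.61, Gja1 at 0.507 and Gjb5 at 0.421 came last. Gja4 stood apart from the rest in every library. Gjb2 was above Gjc1 in each of the 7 libraries, although their ranges over all libraries overlapped. The ranges of Gja5, Gja1 and Gjb5 overlapped, and the order of these 3 did not exceed their spread. By group, Gjc1 averaged 5.81 per kilobase in KO and 1.42 in WT, and Gja1 0.935 in KO and 0.185 in WT. Gja4 made up 96.09% to 98.22% of the normalised counts of all 15 connexin genes in the table in each library, with the lowest share in KO 3. Gjc1 made up 0.47%, 0.56% and 0.81% in KO 1 to KO 3, against 0.03%, 0.12%, 0.16% and 0.17% in WT 1 to WT 4. Gja1 made up at most 0.44%, in KO 3.

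Of 14 further connexin genes looked for, 9 were in the table and 6 were tested. None of the 6 was called by limma, and none of the 2 that edgeR tested or the 5 with a DESeq2 adjusted p was called there. Of the 6, 1 had an unadjusted p under 0.05, lower in KO. Of the 6, 5 had negative log2 fold changes and the median was -0.63, beside 0.95 for the 5 tested members. The highest were Gjb1, whose product Cx32 is known from liver and myelinating glia, and Gja10. Gjb1 ranged from 20.9 to 33.6 normalised counts in KO and from 20.02 to 55.4 in WT (log2 fold change -0.31, limma adjusted p = 0.665). Gja10 ranged from 28.4 to 36.3 in KO and from 20.6 to 41.0 in WT (log2 fold change 0.12, limma adjusted p = 0.861). Per kilobase both lay above Gjb2, at 18.0 for Gjb1 and 14.1 for Gja10 over all libraries. Gjb6 ranged from 3.28 to 6.36 in KO and from 6.67 to 24.9 in WT (-1.18, limma adjusted p = 0.159), with no overlap between the groups. Gja3 ranged from 2.73 to 5.47 in KO and from 6.39 to 10.3 in WT (-0.95, limma adjusted p = 0.251), also with no overlap. Every KO library was below every WT library for 9.83% of all tested genes. Gja6 ranged from 0 to 3.63 in KO and from 1.87 to 10.7 in WT. Gjc3 and Gjd4 had 1 read each, in KO 1. Gjd2, Gjd3 and Gje1 were not analysed here.

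**Figure D3:**
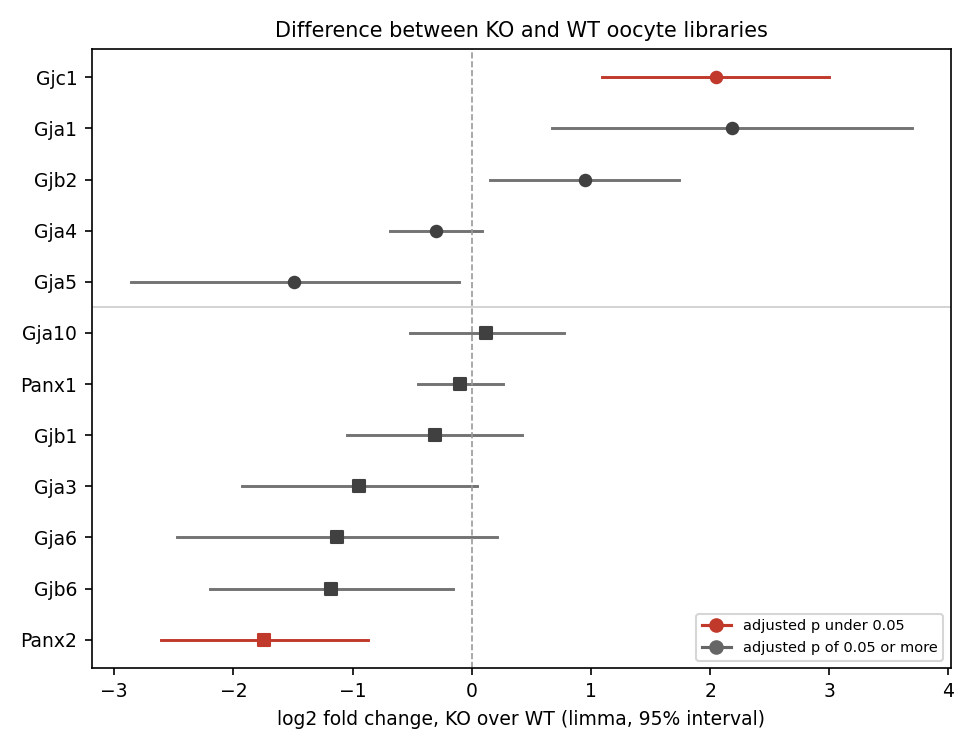
Log2 fold change, KO over WT, of the 5 tested members (circles), above 5 further connexins and the pannexins (squares), each with its 95% confidence interval. Gjc1 (2.05) and Panx2 (-1.74), in red, have an adjusted p under 0.05, and the intervals of Gja1 and Gja5 are the widest among the members.

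Because granulosa cells hold far more Gja1 than oocytes do, granulosa markers were measured beside the connexins. Of 20 granulosa markers, 18 were tested, with a median log2 fold change of 1.36, 15 of them positive and 3 negative. At an unadjusted limma p under 0.05, 10 were higher and 2 were lower, beside 21.8% of all tested genes in either direction. Limma called 1 higher and 2 lower, beside 3.09% and 3.63% of all tested genes, while edgeR called 2 and DESeq2 called 4. Nr0b1 was called higher (2.34, limma adjusted p = 0.0460). The call was lost without WT 1, WT 3 or WT 4 (limma adjusted p = 0.0928 to 0.108). It was also lost with a pseudocount of 0.5 or CPM scaling (limma adjusted p = 0.0575 for both) and with a replicate block (limma adjusted p = 0.0624). Without KO 2, KO 3 or WT 2, Nr0b1 fell below the minimum and was not tested. Cyp19a1, the aromatase, was called lower (-1.23, limma adjusted p = 0.00251). Esr2, the oestrogen receptor beta, was called lower (-0.50, limma adjusted p = 0.0446). That call was lost with a replicate block (limma adjusted p = 0.111) and when any library but KO 3 was left out (limma adjusted p = 0.0537 to 0.205). None of the 3 was called with the marker mean in the fit, but that mean includes these 3 genes. That fit also called 2 genes over the whole table, against 1291 in the main fit, so it cannot decide here. KO 2 and KO 3 were the 2 highest libraries for 13 of the 20 markers. Inha, the inhibin alpha subunit, had 54.5, 395 and 338 normalised counts in KO and 66.7, 18.1, 23.4 and 11.9 in WT. Amh, anti-Müllerian hormone, had 0.909, 8.18 and 7.66 in KO and 0.953, 0, 0 and 0 in WT. Foxl2, the granulosa transcription factor, had 0.909, 3.64 and 3.28 in KO and 0, 0, 0 and 1.08 in WT. Fshr, the receptor of follicle-stimulating hormone, was highest in KO 1 and WT 3, with 49.97, 9.09 and 6.56 in KO and 14.3, 1.07, 39.3 and 2.17 in WT. The summed marker level was 4519 to 5961 in KO and 4160 to 5354 in WT. Most of that sum was Serpine2, at 3265 to 4275 in KO and 2619 to 3740 in WT, and Esr2, at 596 to 853 in KO and 874 to 1119 in WT. A read was found for 18 to 20 markers in KO libraries and 13 to 17 in WT libraries.

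Set against the mean log2 marker level, which was 3.86, 5.07 and 4.80 in KO 1 to KO 3 and 3.94, 2.84, 3.35 and 3.40 in WT 1 to WT 4, Gja1 was highest in KO 2 and KO 3, the libraries highest in the markers. By descending marker level, Gja1 then stood at 0 (WT 1), 2.73 (KO 1), 0 (WT 4), 6.54 (WT 3) and 1.07 (WT 2). Gjb2 was highest in KO 2, at 53.6, whereas KO 3 stood at 19.7, below WT 3 at 23.4. Gjc1 stood at 27.3, 33.6 and 26.3 in KO 1 to KO 3, against 1.91, 7.46, 9.35 and 9.75 in WT 1 to WT 4. With the marker mean in the fit the log2 fold change of Gja1 was 1.61 (limma adjusted p = 0.799), and with KO 1 as the single KO library it was 0.91. None of the tested connexins was called with the marker mean in the fit. That fit called 2 genes over the whole table, against 1291 in the main fit, so a lost call there says little about any 1 gene. The fit with KO 1 alone has no spread within KO. The part of granulosa RNA in the connexin values was not tested beyond these fits.

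**Figure D4:**
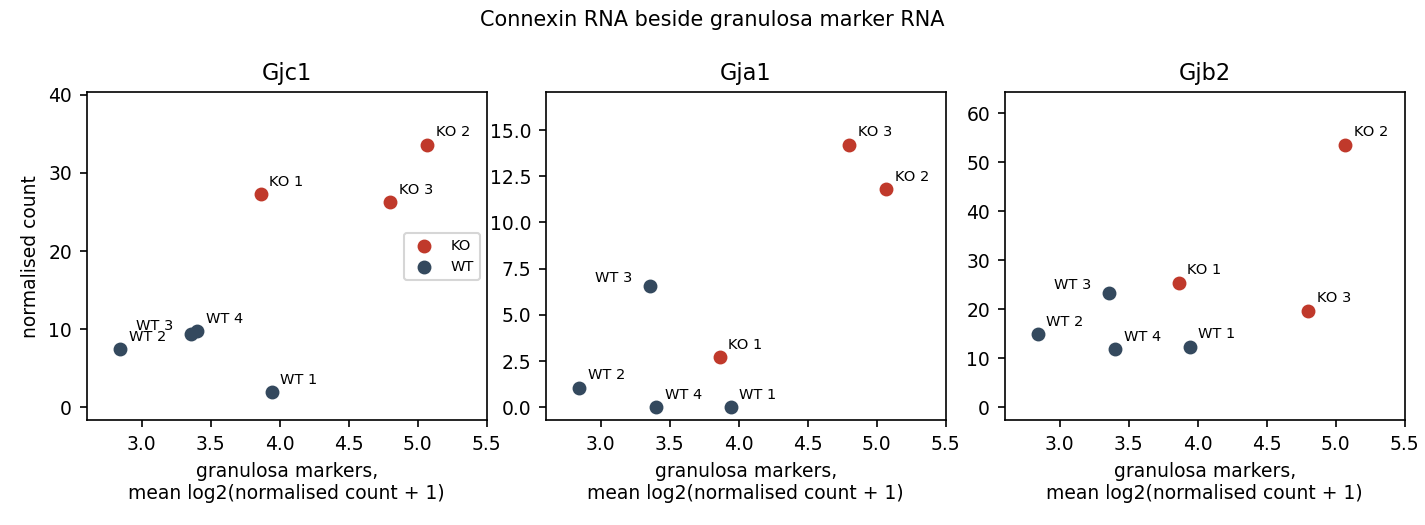
Normalised counts of Gjc1, Gja1 and Gjb2 plotted against the mean log2 level of the granulosa markers, 1 point per library, KO and WT marked by colour. Gja1 is highest in KO 2 and KO 3 at the right and 0 in WT 1, the next in marker level. Gjc1 is 26.3 to 33.6 in KO and 1.91 to 9.75 in WT.

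Markers of other cell types that could hold connexins were measured too. Endothelial markers, relevant to Gja5 and Gja4, summed to 179 to 249.8 normalised counts in KO and 219 to 266 in WT, most of it Pecam1 (128 to 184 in KO and 132 to 191 in WT). Of 7 endothelial markers tested none was called by limma, nor any of the 3 that edgeR tested or the 4 with a DESeq2 adjusted p. At an unadjusted p under 0.05, 1 was lower in KO, and the median log2 fold change was -0.81, with all 7 negative. Sox18 (0, 2.73 and 5.47 in KO, 0 in every WT library) and Egfl7 (0, 3.64 and 3.28 in KO, 0.953, 0, 0 and 0 in WT) were too low to be tested. The defining Cdh5, and Emcn, Eng and Esam, had no values here. Theca and stroma markers, relevant to Gjc1, summed to 9.09 to 21.8 in KO and 9.35 to 20.2 in WT, and none of the 4 tested was called by limma or had an unadjusted p under 0.05. Immune markers summed to 187 to 275 in KO and 542 to 578 in WT, nearly all of it C1qb. C1qb had 173 to 248 in KO and 513 to 555 in WT and was called lower (log2 fold change -1.31, limma adjusted p = 0.000124). The sum therefore follows 1 gene and is no measure of immune cells. The defining Ptprc, and C1qc, Cd52 and Cd14, had no values here, and C1qa, Tyrobp, Lyz2 and Adgre1 had at most 4 reads in any library. Of the other tested markers, Cd68 had a log2 fold change of 0.44 and Csf1r one of -1.37, neither called. Further, of the surface epithelium markers Krt8 was called higher (1.65, limma adjusted p = 0.0251), a call lost without KO 1, KO 2, KO 3, WT 2 or WT 3 (limma adjusted p = 0.0521 to 0.0720). The part of any of these cells in the connexin values was not tested.

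Around the channels, the genes that bind connexins or take them off the membrane held 1 call by limma. Of 32 such genes, 27 were tested, 1 was called higher and none lower, a share near the 3.09% of all tested genes called higher, with a median log2 fold change of -0.05. At an unadjusted p under 0.05, 4 were higher and 1 was lower, which is also near the 21.8% of all tested genes, and edgeR and DESeq2 each called 2. The one called was Nedd4, a ubiquitin ligase known to act on the Gja1 protein in other cells, with 253.5, 393 and 409 normalised counts in KO and 159, 148, 128 and 147 in WT (log2 fold change 1.24, SE 0.19, limma adjusted p = 0.00059). Its call was lost with the granulosa markers in the fit (0.79, limma adjusted p = 0.493), where 2 genes were called over the whole table. With KO 1 as the single KO library its log2 fold change was 0.80. Tsg101, of the sorting machinery for ubiquitinated membrane proteins, had 2619, 3289 and 3253 in KO and 2492, 2196, 2071 and 2402 in WT (0.41, limma adjusted p = 0.0534), and edgeR called it (adjusted p = 0.0438). The other abundant genes of this list were Ywhaz (0.26, limma adjusted p = 0.214) and Mapk3 (-0.15, limma adjusted p = 0.552). Of 19 tested genes of oocyte to granulosa signalling none was called by limma, nor any of the 15 that edgeR and DESeq2 could test, and 1 had an unadjusted p under 0.05, higher in KO. The most abundant of them, Gdf9, an oocyte growth factor for granulosa cells, had 34580, 34140 and 30030 in KO and 28920, 32430, 28130 and 32450 in WT (log2 fold change 0.11, limma adjusted p = 0.592). Bmp15, its partner growth factor, had a log2 fold change of -0.06, and Kit, the oocyte receptor of granulosa Kit ligand, had one of 0.14.

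The pannexins, channel proteins related in topology to connexins but not in sequence, differed between members. Panx1 had 209.9, 219 and 190.3 normalised counts in KO and 199, 266, 212 and 209 in WT (log2 fold change -0.10, limma adjusted p = 0.799). Panx2 had 4.54, 13.6 and 5.47 in KO and 34.3, 33.0, 24.3 and 16.3 in WT, with no overlap between the groups. Panx2 was lower by 1.74 on the log2 scale in the KO libraries (SE 0.42, limma adjusted p = 0.0164). The call was lost without KO 3 (-1.58), WT 1 (-1.61) or WT 2 (-1.63), with limma adjusted p up to 0.0587. It was also lost with the granulosa markers in the fit, where the log2 fold change was larger (-2.39, limma adjusted p = 0.349). That fit called 2 genes over the whole table. With KO 1 as the single KO library the log2 fold change was -2.28. The gene spans of Panx2 and 1810021B22Rik overlap in the annotation. Whether their exons overlap was not measured, and reads from any shared bases cannot be told apart without strand.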

How the data were processed

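RNA was sequenced from 3 KO and 4 WT libraries of pooled oocytes. Per the labels' protocols, Smart-Seq2 cDNA was made into Nextera XT libraries and read as 75-base pairs on a HiSeq instrument. The submitters' processing notes list STAR, cutadapt, FastQC, DESeq2 and DESeq, with the build GRCm38 (mm10). The read counter was not given in the sources used here. Deposited values are signal values, read counts per gene over a size factor specific to each library (0.9141 to 1.1008). Whole reads were recovered within 0.05 for 100% of values up to 1000 reads; over all values the share was 99.962% or more. Oocyte libraries held 19518 to 20663 genes with a read.

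Groups followed the labels. The main test was limma 3.58.1 (R 4.3.3; trend, robust) on log2(value + 1), for the 19227 genes that reached 1 in 3 or more libraries, and p-values were adjusted by Benjamini-Hochberg (threshold 0.05). The count tests on recovered reads, edgeR 4.0.16 (quasi-likelihood) with 1255 genes called and DESeq2 1.42.0 with 1430, were alternatives. Others were pseudocounts of 0.5 and 5, no minimum, a minimum of 10, CPM scaling, a replicate block, a granulosa marker covariate, KO 1 alone as KO and each library left out. CPM scaling shifted the median of all genes by -0.024. Exon lengths and overlaps came from GENCODE M21, and promoters from RefSeq. The fits were tested on simulated data.

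The rule for named genes took the members, the called genes and 3 most abundant genes of each list, the other connexins, and the 3 genes most like a member with a mean of at least 20, leaving out predicted gene models and pseudogenes by their names. Of the abundant genes in the marker lists, only those a connexin result turned on are printed. Members and lists were chosen with earlier results of these data known. Intervals on reads cover counting error only, and no molecular identifiers are stated. Values of some further connexins are not reported here.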

Additional observations from a re-analysis of the deposited data

Results flagged for a closer look

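Gja1 in WT oocytes had 1 library far from the others: WT 3 stood at 6.54 normalised counts (7 reads), against 0, 1.07 and 0 in WT 1, WT 2 and WT 4. The gap to the nearest of the others was 0.837 of the group's range, above Dixon's 95% critical value for 4 samples. Chance passes this value in about 1 in 20 groups of normally distributed values. The WT groups of all 6 members were examined, so a single pass is likelier than that, and counts of 0, 1, 7 and 0 reads are not normally distributed. The KO groups of 3 were not examined this way. The exact 95% Poisson intervals of WT 3 (2.81 to 14.4 reads) and WT 2 (0.0253 to 5.57 reads) overlapped.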

How the results depend on the processing

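Gjc1 kept its direction and its call under both pseudocounts, without a minimum, under CPM scaling, in edgeR and DESeq2 and with each library left out. It lost its call with the granulosa marker covariate (log2 fold change 2.66) and with KO 1 as the single KO library (1.97), where whole-table counts of called genes were 2 and 98, against 1291. Gja1 (2.18) gained a call without a minimum (2.18, same size), and with each library left out it ranged from 1.80 to 2.82. The number of connexins called higher was 1, but 2 without a minimum, 0 with the covariate, 0 with KO 1 as the single KO library and 1 to 2 with each library left out. Genes called over the table ranged from 594 (without WT 3) to 1767 with each library left out, and were 604 without KO 2, 821 without KO 3, 728 without WT 1 and 710 without WT 2.

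KO and WT share replicate numbers, but same-numbered libraries did not deviate together (correlations -0.12, 0.026 and 0.022). Differently numbered libraries gave -0.116 to 0.093. These few correlations show no sign of pairing by number but cannot exclude it. With a replicate block Gjc1 had a log2 fold change of 2.24 (limma adjusted p = 0.00644), 1 connexin was called higher and 1022 genes were called. Gja1 and Gja5 had no value in edgeR or with a minimum of 10. Depth limits Gja1, Gja5 and Gjb5, which had at most 13 reads in any library.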
